A study of Mus musculus with 7 samples.

Results

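Sulfated keratan and chondroitin chains are built on core proteins in the Golgi, and the genes described here encode 10 enzymes of that process, taken from the 25700 genes counted in the lower incisor epithelium of newborn mice. They are Chst1, Chst2, Chst3, Chst7, Chst11, Chst12, Chst14, Chst15, B3gnt7 and Ust. All 10 were matched by symbol to 1 Ensembl gene each, and all 10 were among the 14791 genes that passed the filter on low counts. The 10 genes were chosen by name with the difference between the genotypes already known, so that difference is given for them as a description and without a test. B3gnt7 is a glycosyltransferase and not a sulfotransferase. The other 9 transfer sulfate.

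The libraries came from PN0 pups of a pair of genotypes. The 4 pups labelled K14;Nogo-A (replicates 1, 2, 7 and 10) carried the K14cre allele in 1 copy (cre/+) and Nogo-A fl/fl, so the floxed Nogo-A form of Rtn4 was targeted where the keratin 14 promoter drives Cre, which is the epithelium. The 3 pups labelled wild-type (replicates 3, 8 and 9) have the genotype wt and no stated Cre. The paper describes the controls as littermates, but the labels give no litter. Each library is the dispase-isolated dental epithelium of 1 pup, with both lower incisors pooled, and sex is not given in the labels. The study had 1 more control pup, which was not analysed here.

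Total counts lay between 20929207 and 41219439 per library, and no 2 libraries were alike within sampling noise (chi-square of at least 16.6 per degree of freedom). Rtn4 reached 276.6 to 346.2 CPM (counts scaled to library size) in wild-type and 296.9 to 343.8 CPM in K14;Nogo-A, but the count also covers the Nogo-B and Nogo-C forms of the gene and does not check the deletion. Krt14, the keratin of basal epithelial cells, was present in every library at 1468 CPM or more. Mesenchyme was present too, with Lum, a matrix proteoglycan of mesenchymal cells, at 440.8 CPM or more. The mean log2 CPM of 21 mesenchyme markers was 8.16 to 8.29 in wild-type and 7.51 to 7.74 in K14;Nogo-A, and all 21 had a negative fold change. The summed CPM of 8 ameloblast markers overlapped between the genotypes, and all 8 had a positive fold change. In bulk RNA, fewer cells of a type and less RNA per cell cannot be told apart.

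Keratan sulfate is a chain of alternating galactose and N-acetylglucosamine that carries sulfate on carbon 6 of either sugar. Chondroitin sulfate alternates glucuronic acid with N-acetylgalactosamine, which is sulfated on carbon 4 or 6, and dermatan sulfate is its form with iduronic acid. The position of the sulfates influences which proteins bind the chain. In the nervous system chondroitin sulfate proteoglycans restrain axon growth, and the Nogo receptor family and the phosphatases Ptprs and Ptprf bind them. In the forming tooth, proteoglycans occur in the basement membrane, the stellate reticulum and the predentin.

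Of the 10 genes, Chst1 varied most between libraries and Chst11 had the highest level per length in wild-type. The 300 bases around their RefSeq start sites (250 before, 50 after) are shown for that contrast, 5′ to 3′ in the direction of transcription, from GRCm38.p6 with CpG dinucleotides in capitals. The Chst1 window is chr2:92600867-92601166 on the plus strand and the Chst11 window is chr10:82985247-82985546 on the plus strand.
Chst1: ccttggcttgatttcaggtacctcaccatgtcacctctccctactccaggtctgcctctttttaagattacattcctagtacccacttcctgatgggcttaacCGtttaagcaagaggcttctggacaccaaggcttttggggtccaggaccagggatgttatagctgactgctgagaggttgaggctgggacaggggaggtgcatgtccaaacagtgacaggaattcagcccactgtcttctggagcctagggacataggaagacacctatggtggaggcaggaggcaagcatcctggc
Chst11: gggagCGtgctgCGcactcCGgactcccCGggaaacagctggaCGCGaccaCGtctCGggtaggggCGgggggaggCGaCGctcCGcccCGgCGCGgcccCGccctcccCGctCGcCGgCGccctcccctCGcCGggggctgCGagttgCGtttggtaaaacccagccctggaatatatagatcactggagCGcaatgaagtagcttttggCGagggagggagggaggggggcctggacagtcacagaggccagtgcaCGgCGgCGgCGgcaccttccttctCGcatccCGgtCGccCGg
The Chst1 window held 1 CpG and was 52.67% G and C, against 34 CpG and 71.0% in the Chst11 window. The median over 32841 RefSeq promoter windows was 7 CpG and 52.67%, and 14.1% of them held at most 1 CpG. All 10 genes had a RefSeq window. The other 8 genes had 12 to 34 CpG in each of their windows, of which Chst15 had a pair. The letters GGGCGG, searched on both strands, occurred in the windows of every gene except Chst1 and in 35.7% of all windows. These are descriptions of the letters and not of binding. For Chst1 the RefSeq start lies 1410 bases inside the GENCODE M21 gene model (chromosome 2, 92599707 to 92615250, plus strand), so its window does not cover the start of that model, whereas for Chst11 the models differ by 1 base.

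Chst1, which puts sulfate on carbon 6 of galactose in keratan sulfate, was the gene of the 10 that differed most between the genotypes. Its level was 69.8, 29.9 and 55.4 CPM in wild-type 3, 8 and 9. In K14;Nogo-A 1, 2, 7 and 10 it was 80.6, 235, 194 and 127 CPM. Every K14;Nogo-A library lay above every wild-type library, but K14;Nogo-A 1 exceeded wild-type 3 by little, and K14;Nogo-A 2 was 7.86 times wild-type 8. The means were 51.7 ± 20.2 CPM (SD, n = 3) and 159 ± 68.8 CPM (SD, n = 4), a ratio of 3.08. The log2 fold change of K14;Nogo-A over wild-type in edgeR was 1.62 with a standard error of 0.48.

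**Figure D1:**
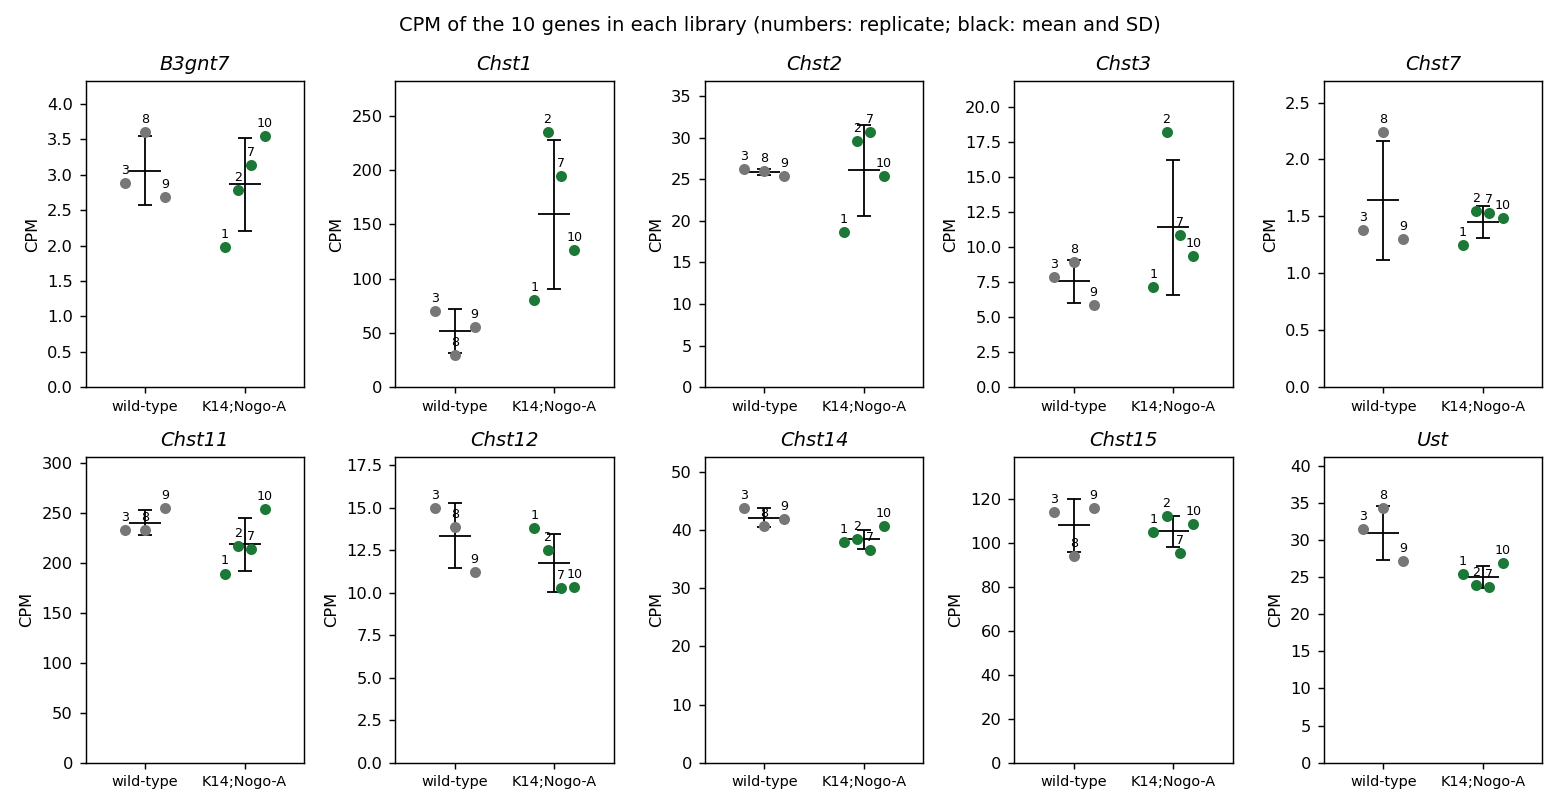
CPM (counts scaled to library size, vertical axis from 0) of each of the 10 genes in the 3 wild-type (grey) and 4 K14;Nogo-A (green) libraries, numbered by replicate, with the mean and SD in black. Chst1 spans 29.9 to 235 CPM with the genotypes apart, whereas Chst15 stays between 94.1 and 116 CPM in all 7 libraries.

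Chst2, which sulfates carbon 6 of N-acetylglucosamine in the same chain, did not follow Chst1. It was at 26.2, 26.01 and 25.4 CPM in wild-type 3, 8 and 9 and at 18.7, 29.7, 30.7 and 25.4 CPM in K14;Nogo-A 1, 2, 7 and 10. The K14;Nogo-A libraries lay on both sides of the wild-type libraries, with a log2 fold change of 0.01 and a standard error of 0.15. The ratio of the RPKM of Chst1 to that of Chst2 (counts per kilobase of exon, scaled as CPM are) was 3.14 to 7.28 in wild-type and 11.8 to 21.7 in K14;Nogo-A. B3gnt7, which adds N-acetylglucosamine to the growing keratan chain, was low, at 2.69 to 3.60 CPM in wild-type and 1.98 to 3.55 CPM in K14;Nogo-A, with overlapping groups. A further gene of opposite strand, Gm28626, lies over 12.6% of the exon length of B3gnt7 and was not analysed here.

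The chondroitin 6-O-sulfotransferases Chst3 and Chst7 were both low. Chst3 was at 7.85, 8.94 and 5.86 CPM in wild-type 3, 8 and 9 and at 7.15, 18.2, 10.9 and 9.34 CPM in K14;Nogo-A 1, 2, 7 and 10. K14;Nogo-A 2 was the highest library and K14;Nogo-A 1 lay among the wild-type libraries. The log2 fold change of Chst3 was 0.58 with a standard error of 0.29, and without K14;Nogo-A 2 it was 0.27. Chst7 had 27 to 92 counts per library. It reached 1.30 to 2.24 CPM in wild-type and 1.25 to 1.55 CPM in K14;Nogo-A, and its log2 fold change of -0.19 (standard error 0.27) became 0.12 without wild-type 8.

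The 4-O-sulfotransferases had slightly lower means in K14;Nogo-A. Chst11, the main enzyme of chondroitin 4-O-sulfation in cartilage, was at 233, 234 and 256 CPM in wild-type 3, 8 and 9 and at 190, 217, 214 and 254 CPM in K14;Nogo-A 1, 2, 7 and 10. The highest library of each genotype was almost alike, and the groups overlapped. The fold change of Chst11 was -0.14 on the log2 scale (standard error 0.11). Chst12, which carries out the same reaction, lay between 11.2 and 15.01 CPM in wild-type and between 10.3 and 13.8 CPM in K14;Nogo-A. Chst14, which sulfates carbon 4 next to iduronic acid in dermatan sulfate, was at 43.9, 40.67 and 41.9 CPM in wild-type 3, 8 and 9 and at 38.0, 38.4, 36.6 and 40.66 CPM in K14;Nogo-A 1, 2, 7 and 10. The groups did not overlap, but wild-type 8 and K14;Nogo-A 10 were almost alike, with a log2 fold change of -0.13 (standard error 0.09).

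Chst15 and Ust add a second sulfate to chondroitin or dermatan units. Chst15, which adds the 6-O-sulfate to 4-O-sulfated N-acetylgalactosamine, was at 114, 94.1 and 116 CPM in wild-type 3, 8 and 9 and at 105, 112, 95.8 and 109 CPM in K14;Nogo-A 1, 2, 7 and 10, with overlapping groups. The opposite-strand gene Gm10584 covers 17.9% of its exon length and was not analysed here. Ust, which adds sulfate to carbon 2 of the uronic acid, was at 31.4, 34.3 and 27.1 CPM in wild-type 3, 8 and 9. It was at 25.3, 23.9, 23.7 and 26.9 CPM in K14;Nogo-A 1, 2, 7 and 10. All 4 K14;Nogo-A libraries lay below the 3 wild-type libraries, though K14;Nogo-A 10 and wild-type 9 were almost alike. The log2 fold change of Ust was -0.31 with a standard error of 0.11.

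Across the 10 genes the fold changes were mostly small. The study called a gene where the unadjusted P did not exceed 0.05 and the log2 fold change was 0.5 or more in either direction. Past these thresholds were 1 gene higher in K14;Nogo-A (Chst1) and 0 lower, where 2.02% of all genes kept were past them as higher and 2.74% as lower. The groups did not overlap for 1 gene that was higher and 2 that were lower (Chst14 and Ust), where 5.43% of all genes kept were apart as higher and 6.09% as lower. Fold changes were positive for 3 genes and negative for 7, with a median log2 fold change of -0.12 against -0.01 over all genes kept. Without Chst1 and Chst3 the log2 fold changes of the other 8 genes lay between -0.31 and 0.01. Since the genes were selected on this comparison, nothing is read from these counts.

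**Figure D2:**
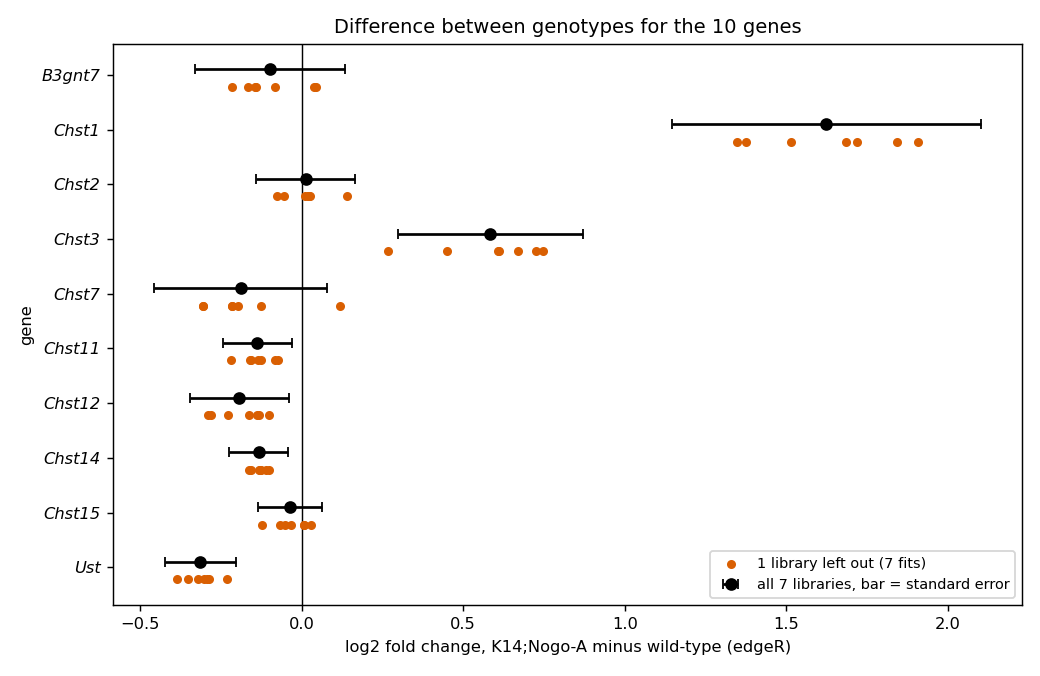
Log2 fold change of K14;Nogo-A over wild-type from edgeR for each gene (horizontal axis), with all 7 libraries (black, bar = standard error) and with each library left out in turn (orange). Chst1 stays between 1.35 and 1.91 in the 7 fits with 1 library left out, and the sign turns in at least 1 of these fits for B3gnt7, Chst2, Chst7 and Chst15.

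Leaving out wild-type 9 left Chst1 short of the thresholds, at 1.69, and leaving out K14;Nogo-A 1 put Chst3 past them. These fits use the comparison on which the genes were chosen and are given as descriptions.

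Levels between genes were compared as RPKM. In wild-type the order was Chst11 (43.6), Chst14 (20.2), Chst1 (19.3), Chst15 (16.01), Ust (6.69), Chst12 (5.66), Chst2 (3.53), Chst3 (1.16), Chst7 (0.744) and B3gnt7 (0.740), as means of 3 libraries. The libraries of neighbouring genes overlapped for Chst14 and Chst1, Chst1 and Chst15, Ust and Chst12, Chst3 and Chst7, and Chst7 and B3gnt7. In K14;Nogo-A Chst1 came first with 59.4 RPKM, followed by Chst11 with 39.6 RPKM, but their libraries overlapped. The rest of the order in K14;Nogo-A was Chst14, Chst15, Ust, Chst12, Chst2, Chst3, B3gnt7 and Chst7, from 18.4 to 0.659 RPKM. Chst1 held ranks 1 to 4 in single libraries, while Chst2 was in place 7 and Chst3 in place 8 in each of the 7 libraries.

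**Figure D3:**
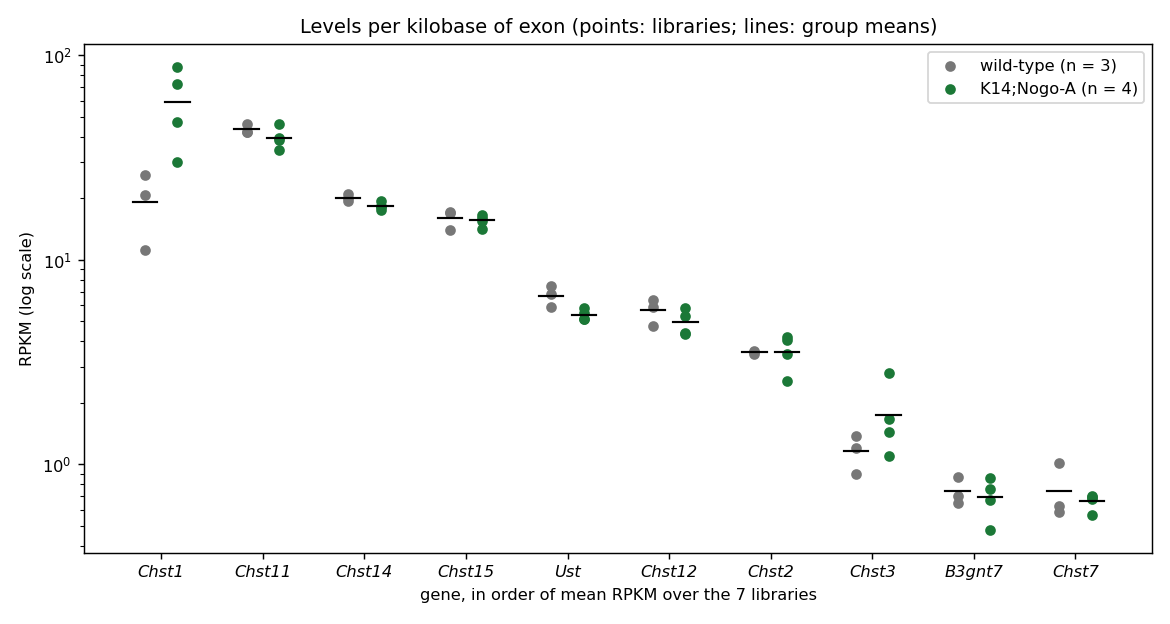
RPKM (log axis) of the 10 genes in the wild-type (grey) and K14;Nogo-A (green) libraries, ordered by mean over 7 libraries, with group means as lines. Chst1 runs from 11.2 to 87.7 RPKM, whereas the Chst14 points lie close together and B3gnt7 and Chst7 are lowest.

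Chst1 made up more of the summed RPKM of the 9 sulfotransferases in every K14;Nogo-A library than in any wild-type library. Its share was 20.9%, 10.5% and 17.3% in wild-type 3, 8 and 9 and 26.5%, 48.7%, 45.6% and 32.7% in K14;Nogo-A 1, 2, 7 and 10. The sum of the other 8 was 97.5 ± 2.30 RPKM (SD, n = 3) in wild-type and 89.95 ± 6.14 RPKM (SD, n = 4) in K14;Nogo-A. The ratio of the chondroitin 4-O enzymes Chst11 and Chst12 to the 6-O enzymes Chst3 and Chst7 was 26.5, 20.1 and 34.2 in wild-type 3, 8 and 9. In K14;Nogo-A 1, 2, 7 and 10 it was 24.1, 12.7, 18.2 and 23.9, and the groups overlapped. These are ratios of RNA levels and not of sulfated chains.

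Genes with the profile nearest to that of Chst1 over the 7 libraries were Gdf5, Asgr1, Cldn20, Relt and Slc4a9. Nearness was the root mean square difference of log2 CPM centred on each gene's mean. These genes were picked by that nearness in the same libraries. Their likeness to Chst1, with its difference between the genotypes, follows from the choice and is a description. The difference was 0.12 for Gdf5, a ligand of the BMP family, and 0.27 for Slc4a9, a member of a bicarbonate transporter family. Relt, a receptor of the TNF receptor family, had 0.24. Asgr1 was low, with a mean of 0.312 CPM in wild-type and 0.913 CPM in K14;Nogo-A. Of the other 9 genes described here, Chst3 came nearest, with rank 379 of 14790 and a difference of 0.72. The remaining 8 had differences of 0.90 to 1.13. The measure takes in the size of the swings as well as their shape, so genes that hardly varied came out far from Chst1.

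**Figure D4:**
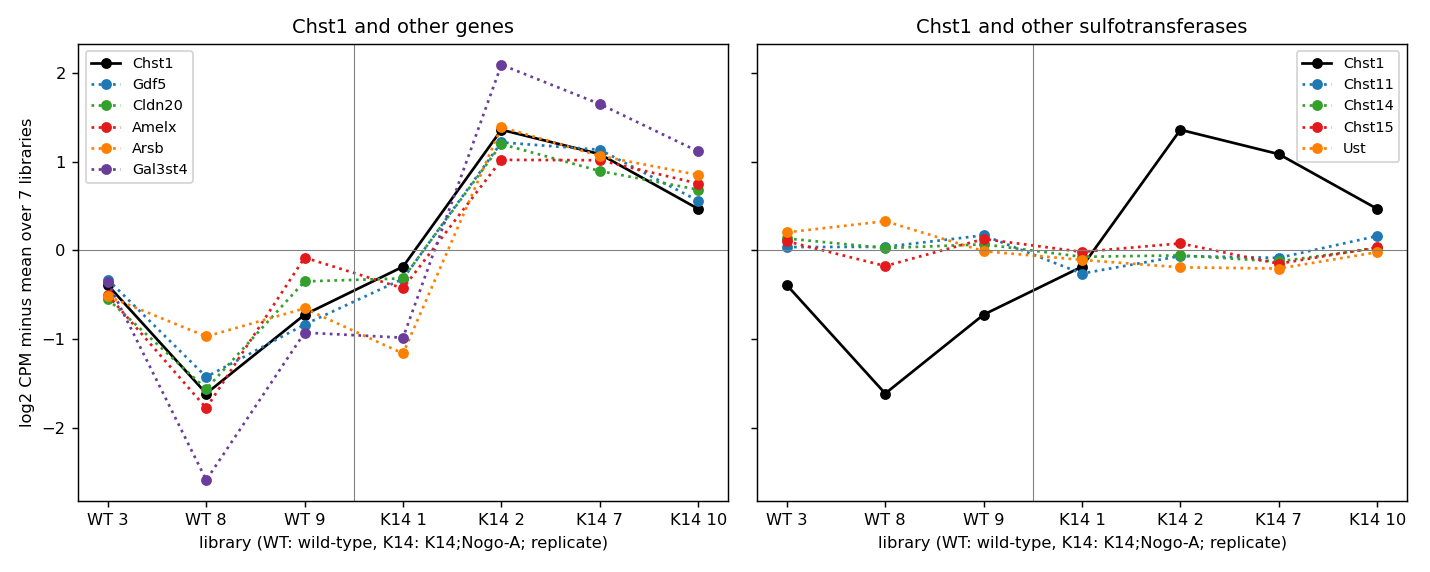
Log2 CPM of each gene minus its mean over the 7 libraries (vertical axis), by library, wild-type to the left of the grey line and K14;Nogo-A to the right. Chst1 (black) moves with Gdf5 and Cldn20, which were picked for their nearness to it in these libraries, and less closely with Amelx (left). Chst11, Chst14, Chst15 and Ust span a far smaller range over the 7 libraries (right).

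Some library features are set beside Chst1 here, which they followed only in part. Amelx, the gene of the enamel protein amelogenin, took 2.57%, 1.11% and 3.36% of counts in wild-type 3, 8 and 9 and 2.76%, 7.08%, 6.99% and 5.81% in K14;Nogo-A 1, 2, 7 and 10. For both Amelx and Chst1, wild-type 8 was the lowest library and K14;Nogo-A 2 the highest. Amelx was higher in wild-type 9 than in K14;Nogo-A 1, whereas Chst1 was lower in wild-type 9. The summed level of the 8 ameloblast markers was 13920 to 41920 CPM in wild-type and 33210 to 105100 CPM in K14;Nogo-A. Most of this sum was Amelx itself, at 10440 to 33880 CPM in wild-type and 26650 to 72660 CPM in K14;Nogo-A. By the same profile difference as above, Amelx, Klk4, Mmp20, Enam and Ambn had ranks 10 to 232 of 14790. The markers Odam, Sp6 and Amtn were further from Chst1, with ranks 4728 to 13233. The part of ameloblast content in the Chst1 difference was not tested. The Y-linked genes Uty, Kdm5d, Eif2s3y and Ddx3y were high in wild-type 3 and 8 and in K14;Nogo-A 1, with a mean log2 CPM of 4.94 or more, and at -3.04 or less in the other 4 libraries. Within the Y-high libraries Chst1 was at 80.6 CPM in K14;Nogo-A 1 against 29.9 and 69.8 CPM in wild-type, a ratio of 1.62. Within the Y-low libraries it was at 127 to 235 CPM in K14;Nogo-A against 55.4 CPM in wild-type 9, a ratio of 3.35. The Y-low wild-type 9 lay between the Y-high wild-type 8 and wild-type 3. In a fit with these Y-linked levels as covariate, the log2 fold change of Chst1 was 1.26 (standard error 0.53), which was not past the thresholds. With the mean log2 CPM of the mesenchyme markers as covariate it was -1.89 (standard error 0.99), although these means are not shared by the genotypes (8.16 to 8.29 against 7.51 to 7.74). Under that covariate the sign turned for 7 of the 10 genes and for 7206 of the 14791 genes kept. Among them were Chst3 (-1.49, standard error 0.93) and Ust (0.28, standard error 0.40). Ust was at 25.3 CPM in K14;Nogo-A against 31.4 and 34.3 CPM in wild-type among the Y-high libraries. Among the Y-low libraries it was at 23.7 to 26.9 CPM against 27.1 CPM. Chst1 and Ust did not overlap between the genotypes, so any split had to keep their direction and nothing is read from it.

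The rest of the sulfated chain pathway was taken from 10 lists of 98 genes, none of them among the 10 above, of which 90 were kept. No gene of the 90 passed an adjusted p under 0.05 in edgeR's quasi-likelihood test, the smallest adjusted p being 0.271, where 0% of all genes kept were called higher and 0.0338% lower. Without adjustment, 7 of the 90 were higher and 8 lower at p under 0.05, where 6.25% of all genes kept were higher and 6.66% lower. DESeq2 and edgeR's likelihood-ratio test, which called more of all genes, also called 0 of the 90. At the study's thresholds, where the percentages over all genes were given above, 3 of 90 were higher and 4 lower.

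The 3 higher genes were Gal3st4, Arsb and Hs3st6. Gal3st4, which puts sulfate on carbon 3 of galactose in mucin-type sugars, was at 27.1, 5.72 and 18.2 CPM in wild-type 3, 8 and 9 and at 17.5, 148, 109 and 75.4 CPM in K14;Nogo-A 1, 2, 7 and 10. K14;Nogo-A 1 lay among the wild-type libraries and the other 3 above them (log2 fold change 2.37, standard error 0.91, adjusted p = 0.375 in edgeR's quasi-likelihood test). Arsb, the lysosomal enzyme that removes the 4-O-sulfate of chondroitin and dermatan sulfate, was at 154, 112.5 and 140 CPM in wild-type 3, 8 and 9 and at 98.5, 578, 462 and 398 CPM in K14;Nogo-A 1, 2, 7 and 10. For Arsb, K14;Nogo-A 1 was the lowest of all 7 libraries while the other 3 were the highest (log2 fold change 1.50, standard error 0.60, adjusted p = 0.384 in edgeR's quasi-likelihood test). Without K14;Nogo-A 1 Arsb had an adjusted p of 0.00151 in that test and a log2 fold change of 1.82. K14;Nogo-A 1 was the only Y-high library of its genotype. It also had the least Amelx of that genotype, at 2.76% of counts against 5.81% to 7.08%. Its mean log2 CPM of the ameloblast markers was 8.11, against 8.89 to 9.68. These features go together in this genotype, and the part of each was not tested. Within the Y-high libraries the ratio of K14;Nogo-A to wild-type was 0.74 for Arsb and 1.07 for Gal3st4. Within the Y-low libraries it was 3.42 and 6.08. With the Y-linked levels as covariate, their log2 fold changes were 0.75 (standard error 0.64) and 1.465 (standard error 1.09), not past the thresholds. Hs3st6, which adds the rare 3-O-sulfate to heparan sulfate, had only 55 to 129 counts per library. It reached 2.15 to 3.03 CPM in wild-type and 2.54 to 4.64 CPM in K14;Nogo-A. With each library left out in turn, Gal3st4 and Arsb were past the thresholds in 1 of 7 fits each, the one without K14;Nogo-A 1, and Hs3st6 in 4 of 7.

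Of the 4 lower genes, 2 encode core proteins. Bgn (biglycan, a carrier of chondroitin and dermatan sulfate) was at 771, 573.1 and 636 CPM in wild-type 3, 8 and 9 and at 573.8, 290.5, 304 and 463 CPM in K14;Nogo-A 1, 2, 7 and 10. Wild-type 8 and K14;Nogo-A 1 were almost alike (log2 fold change -0.69, standard error 0.23, adjusted p = 0.286 in edgeR's quasi-likelihood test). Lum (lumican, a keratan sulfate carrier in the cornea) lay between 605 and 1074 CPM in wild-type and between 440.8 and 803 CPM in K14;Nogo-A. Lum is also in the mesenchyme marker list. Sulf2, the extracellular enzyme that removes 6-O-sulfate from heparan sulfate, was lower in every K14;Nogo-A library, at 45.3 to 83.7 CPM against 84.95 to 107.5 CPM (adjusted p = 0.271 in edgeR's quasi-likelihood test). Chsy3, a chondroitin chain polymerase, had 30 to 126 counts per library and a log2 fold change of -0.66 with a standard error of 0.28. With 1 library left out, Sulf2 and Bgn were past the thresholds in 5 of 7 fits each and Lum and Chsy3 in 2 of 7.

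Described by function, the core proteins were mostly lower and the linkage enzymes slightly higher, in genes that did not pass an adjusted p under 0.05. All 5 keratan sulfate core proteins kept had negative fold changes, with a median log2 fold change of -0.38. So did 9 of 12 chondroitin and dermatan sulfate core proteins, with a median of -0.26. Of all 14791 genes kept, 7613 had negative and 7178 positive fold changes. The lists were chosen with earlier results of these data known, so their signs are a description. Lum and Dcn are themselves in the mesenchyme marker list and Acan is in the cartilage list. All 21 mesenchyme markers had negative fold changes, with a summed level of 30200 to 46250 CPM in wild-type and 13450 to 36990 CPM in K14;Nogo-A and none at 0. With their mean as covariate the fold changes of Lum, Omd and Bgn were positive, at 1.49, 1.66 and 1.07 (standard errors 0.57, 0.68 and 0.65). Lum is itself part of that mean, and the mean does not overlap between the genotypes. In that fit the sign turned for 7206 of the 14791 genes kept, so no direction is read from it. All 7 genes of the linkage region, the short sugar stem that joins chondroitin and heparan sulfate to protein, had positive fold changes of 0.06 to 0.30. The largest was that of B3gat3, which adds its glucuronic acid, at 34.8 to 42.3 CPM in wild-type and 44.6 to 54.1 CPM in K14;Nogo-A (adjusted p = 0.301 in edgeR's quasi-likelihood test). Sulfate donor supply, with the sulfate-activating enzyme Papss1 and the carrier Slc35b2, had 8 genes between -0.09 and 0.23. Medians over the other lists were 0.06 for keratan chain synthesis, -0.10 for chondroitin chain synthesis, -0.19 for other carbohydrate sulfotransferases, -0.02 for heparan sulfate, 0.06 for breakdown enzymes and -0.05 for chondroitin sulfate receptors. Over all 90 genes the median was -0.01, against -0.01 over all genes kept.

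**Figure D5:**
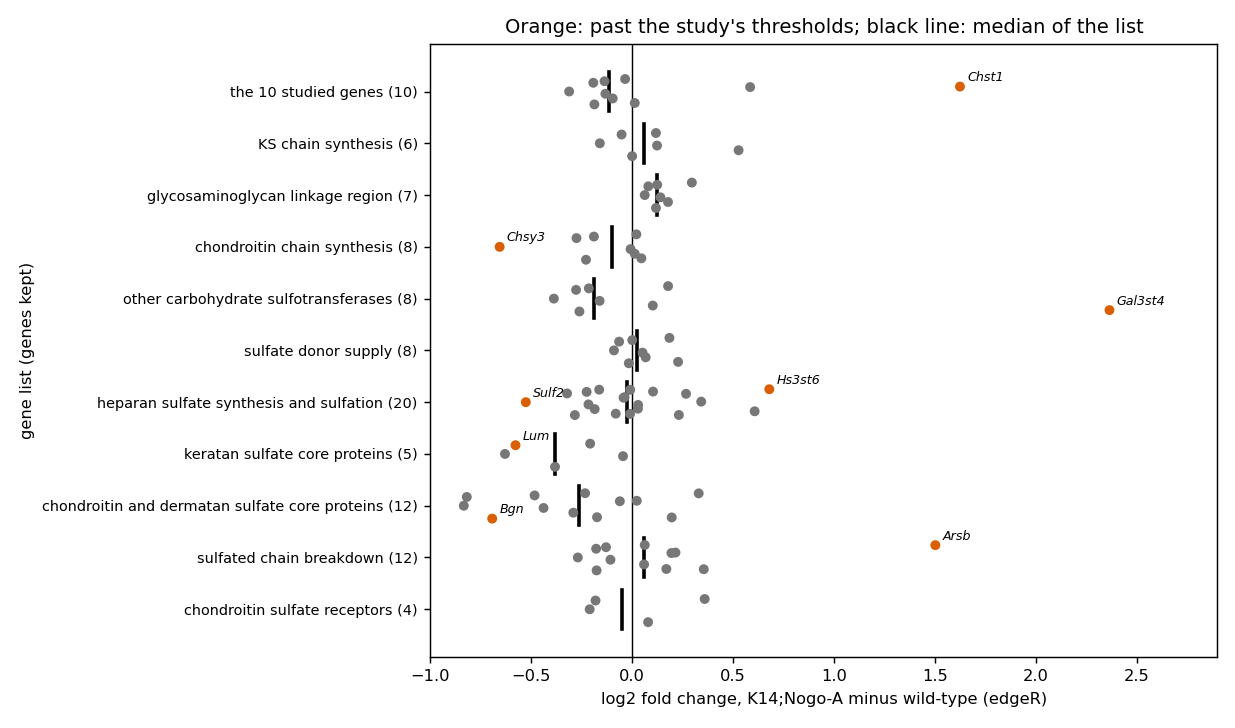
Log2 fold change of K14;Nogo-A over wild-type (horizontal axis) for each gene of the 10 genes and of the 10 pathway lists, with the number kept in brackets, the list median as a black line and genes past the study's thresholds in orange. The orange points beyond 1 are Chst1, Arsb and Gal3st4, while the keratan sulfate core proteins all lie below 0.

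All 4 receptors for chondroitin sulfate on the list were kept. Ptprf was at 526.8 to 824.6 CPM and Ptprs at 212 to 295 CPM over all 7 libraries, and for both the genotypes overlapped. Their log2 fold changes were 0.08 and -0.18, with adjusted p = 0.870 and 0.515 in edgeR's quasi-likelihood test. Of the Nogo receptor family, Rtn4rl1 was at 12.03 to 19.45 CPM in wild-type and 17.5 to 21.8 CPM in K14;Nogo-A, with a log2 fold change of 0.36 (standard error 0.16). The Nogo receptor gene Rtn4r was lower in level, at 2.39 to 5.04 CPM in wild-type and 2.12 to 4.18 CPM in K14;Nogo-A, with a log2 fold change of -0.21 (standard error 0.29). Both overlapped between the genotypes, with adjusted p = 0.373 and 0.793 in edgeR's quasi-likelihood test.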

How the data were processed

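Poly(A) RNA of the dental epithelium of 7 pups was sequenced. The authors deposited unnormalised counts for each Ensembl gene, obtained with bcl2fastq 2.19, STAR 2.7.1 on GRCm38, Ensembl gene models and featureCounts. Trimming was by Trimmomatic in the submitters' notes and by fastp in the paper, and the strand setting of the counting was not given in the sources used here.

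A gene was kept where 50% or more of the libraries of 1 genotype had 10 counts or more. K14;Nogo-A was compared with wild-type by edgeR 4.0.16 (R 4.3.3) with TMM factors and the robust quasi-likelihood test, with Benjamini-Hochberg adjustment over all genes kept. The standard error is the fold change divided by the root of F. The paper's fold change threshold of 0.5 was read as log2. CPM used TMM library sizes, log2 CPM a prior count of 2, and RPKM the union exon length of GENCODE M21. Promoter windows are from RefSeq.

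The genes and lists were chosen with earlier results of these data known. Named are the 10 genes, pathway genes past a threshold, the 2 highest genes by RPKM of each list where a result touches them, Rtn4, the 5 genes nearest to Chst1, Krt14, Amelx and Col1a1. The receptors Rtn4r and Rtn4rl1 were added after their values were seen. Alternatives were RLE and upper-quartile factors, the likelihood-ratio test, DESeq2 1.42.0, limma-voom (limma 3.58.1), other filters, thinning, covariates, the longest transcript, and each library left out.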

Additional observations from a re-analysis of the deposited data

Results flagged for a closer look

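Of 33 genes examined in the 4 K14;Nogo-A libraries, 2 had 1 library far from the other 3. Chance gives about 1 in 20 for any library at either end, so 2 of 33 is near that rate. In both genes the library was K14;Nogo-A 10, as the highest. Chsy3 was at 2.632 CPM there against 1.326 to 1.465 CPM in the others, and Ptprs at 260.4 CPM against 212.2 to 217.4 CPM.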

How the results depend on the processing

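Past the study's thresholds, the number of the 10 genes that were higher, 1 with all libraries, was 2 with the likelihood-ratio test and with DESeq2, which added Chst3, and 0 with the Y-linked or the mesenchyme covariate. It ranged from 0 to 2 with 1 library left out. Of the pathway genes, 3 were higher, against 1 with limma-voom, 0 with the Y-linked covariate and 0 to 5 with 1 library left out. There were 4 lower, against 2 with the Y-linked covariate and 1 to 7 with 1 library left out. The genes behind the counts also changed. With the mesenchyme covariate they were Lum, Omd, Dcn and Epyc higher and Slc26a2, Sulf1 and Cd44 lower, none called in that direction in the main fit. Without wild-type 9 the higher genes were Slc26a1, Hs3st6 and Rtn4rl1. At an adjusted p under 0.05 the pathway count was 0 to 1 in each direction with 1 library left out, Arsb and Bgn (-0.90) being called without K14;Nogo-A 1.

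With the mesenchyme markers as covariate some log2 fold changes reversed, given here with their standard errors. They were those of Chst1 (-1.89, 0.99), Chsy3 (0.93, 1.06), Gal3st4 (-3.07, 2.75), Hs3st6 (-0.82, 0.87), Lum (1.49, 0.57), Bgn (1.07, 0.65), Arsb (-1.88, 1.94) and Omd (1.66, 0.68). Of these only Lum and Omd were past the thresholds. The sign also turned for Chst2 (-1.01, 0.54), Chst3 (-1.49, 0.93), Ust (0.28, 0.40), Chst7 (0.21, 1.13), B3gnt7 (0.15, 0.98) and Chst12 (0.08, 0.61), and for 50 of the 90 pathway genes in all. The mean log2 CPM of these markers, the covariate, does not overlap between the genotypes although their summed CPM does, and the cause was not tested. The fit therefore cannot well separate the covariate from the genotype, and most of these signs are undetermined. Over all genes, 299 were higher and 406 lower at the thresholds, against 146 and 240 without wild-type 8, 542 higher without wild-type 9 and 454 higher without K14;Nogo-A 1. At an adjusted p under 0.05 there were 0 and 5, against 58 and 108 with the likelihood-ratio test, 148 and 169 with DESeq2, 1 and 20 without a filter, 9 lower with the Y-linked covariate, 0 lower with the mesenchyme covariate, 45 and 48 without wild-type 9, and 97 and 124 without K14;Nogo-A 1. Lower calls were 0 without wild-type 3, wild-type 8, K14;Nogo-A 2 or K14;Nogo-A 10 and 1 without K14;Nogo-A 7, and 1 gene was called higher without wild-type 3. The longest transcript in place of the union of exons raised the mean RPKM of B3gnt7 from 0.713 to 1.14 and of Chst15 from 15.8 to 21.2. No paired analysis was possible. The paper describes the controls as littermates, but the labels give no litter and the genotypes share no replicate numbers. Low counts limit Chst7, B3gnt7, Chsy3 and Hs3st6.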
